A study of Rattus norvegicus with 6 samples.

Results

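Antiviral interferon-stimulated effector genes encode the proteins with which an interferon-exposed cell senses, blocks and degrades viruses. A set of 46 such genes was chosen by name, in 7 effector classes, and looked up in the count tables of LPS-stimulated rat microglia with and without siponimod. Of the 46, 43 were listed among the 23139 genes of the tables, and all 43 passed the filter on low counts. Expression of Oas1b, Samd9l and Slfn3 was not analysed here, and these genes enter only the search of promoters. The choice of genes used no measured value of the comparison, although earlier results of these data were known when it was made.

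Microglia, the resident macrophages of the brain, were isolated from the cortices of postnatal day 1 Wistar rats by shaking them off mixed cultures and by magnetic sorting for CD11b/c. Both conditions received 100 ng/mL lipopolysaccharide (LPS, a component of the outer membrane of Gram-negative bacteria). In the LPS group the solvent DMSO was added, and in the LPS/siponimod group 50 µM siponimod, a modulator of sphingosine-1-phosphate receptors, was added together with LPS. Each group comprised 3 libraries of bulk mRNA, described as biological replicates, with total counts of 39484979, 38301365 and 38080379 for LPS replicates 1, 2 and 3 and of 46643859, 43336006 and 38857441 for LPS/siponimod replicates 1, 2 and 3. The 6 libraries include neither unstimulated cells nor a group given siponimod without LPS, so that every value below compares siponimod with its solvent in the presence of LPS, in neonatal cells in culture.

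LPS binds Toll-like receptor 4, whose TRIF-dependent branch switches on the gene of interferon-β. Secreted interferon-β then acts on the type I interferon receptor of the same and of neighbouring cells, and Janus kinases activate a complex of signal transducers with the regulatory factor IRF9 that binds the interferon-stimulated response element in promoters. The induced genes include sensors of foreign nucleic acids, proteins that bind or cleave viral RNA, GTPases, enzymes of the ubiquitin-like modifier ISG15 and factors that block single steps of viral replication, and several of them feed back on the pathway.

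Before the results, 1 library has to be described. LPS replicate 3 correlated less with the other LPS libraries (0.935 with replicate 1 and 0.945 with replicate 2, over the log CPM of genes) than these did with each other (0.983). It also held counts of the oligodendrocyte lineage genes Olig1 (515, against 1 and 5 in LPS replicates 1 and 2) and Pdgfra (284, against 5 and 4) and of the neuronal gene Map2 (162, against 0 and 3). LPS/siponimod replicate 3 held 17, 81 and 115 counts of the same genes, and no other LPS/siponimod library held more than 4. Of the astrocyte genes, Gfap (88, against 1 and 2) and Sox9 (99, against 0 and 5) were also highest in LPS replicate 3. Other markers of the oligodendrocyte lineage, neurons and astrocytes had their fewest LPS counts there. Among them were Mbp (84, against 149 and 161), Syp (26, against 54 and 48) and Slc1a3 (574, against 1500 and 775). The number of effector genes called is therefore also given without LPS replicate 3 and without both libraries numbered 3, and the part of other cell types in single values was not tested.

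Most of the effector genes were lower with siponimod. All 43 had a negative log2 fold change (FC, LPS/siponimod against LPS), as did 51.2% of the 11977 genes tested, and the median over the 43 was -1.23, compared with -0.02 over all genes tested. Differentially expressed genes (DEGs) were defined by an adjusted p of at most 0.05 in edgeR's quasi-likelihood test and a fold change of at least 1.5, and 32 of the 43 were DEGs with lower expression, against a background of 11.7% of all genes tested. No effector gene was a DEG with higher expression, while 13.6% of all genes were. Below, the error of a log2 FC is its standard error, and adjusted p are those of this test unless another fit is named. Of the 32 DEGs, 25 were lower by at least 2-fold. In normalised counts per 1000000 (CPM), every LPS/siponimod library lay below every LPS library for 35 of the 43, which held for 24.0% of all genes. Together the 43 genes took 2.64%, 2.29% and 1.62% of all counts in LPS replicates 1, 2 and 3, and 0.806%, 1.11% and 0.801% in LPS/siponimod replicates 1, 2 and 3. The lowest LPS library was thus above the highest LPS/siponimod library. In bulk RNA, fewer responding cells and less RNA per cell cannot be told apart.

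**Figure D1:**
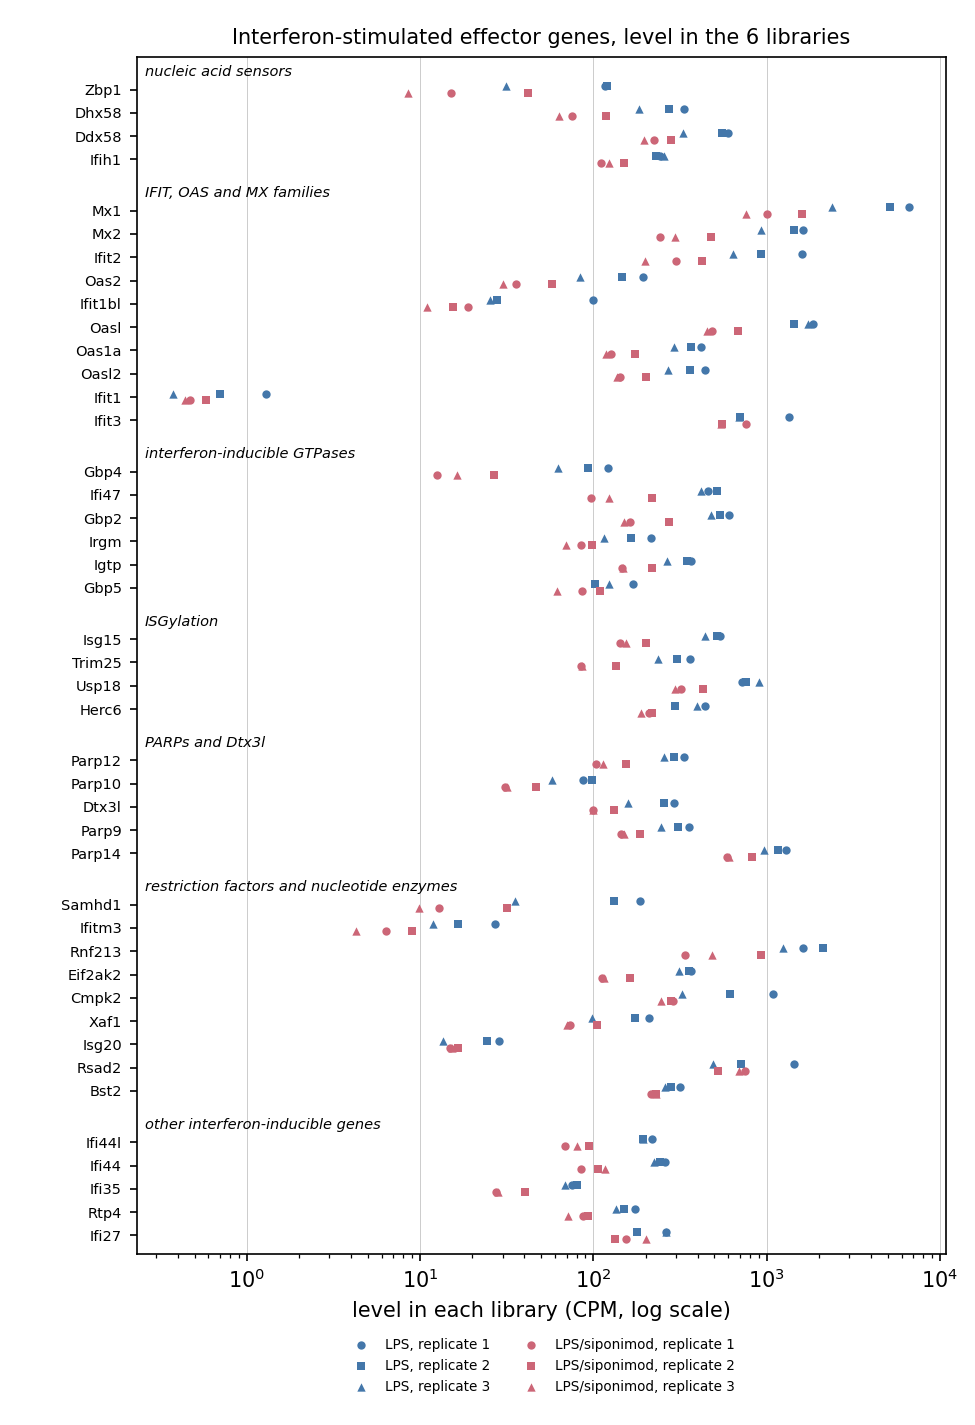
Level of each of the 43 effector genes in the 6 libraries, in CPM on a log axis, grouped by effector class; blue marks LPS and red marks LPS/siponimod, and the marker shape gives the replicate number. For 35 genes all red markers lie to the left of all blue markers, and the blue triangle of LPS replicate 3 is the lowest of the blue markers for 37 genes.

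The class medians lay between -1.69 and -1.10. The median log2 FC was -1.69 over the 10 IFIT, OAS and MX genes (7 DEGs), -1.38 over the 4 genes of ISGylation (4 DEGs), -1.35 over the 4 nucleic acid sensors (3 DEGs) and -1.31 over the 9 restriction factors and nucleotide enzymes (4 DEGs). It was -1.23 over the 5 other interferon-inducible genes (4 DEGs), -1.22 over the 6 interferon-inducible GTPases (5 DEGs) and -1.10 over the 5 genes of the PARP family with Dtx3l (5 DEGs). No test was made between classes, and within every class except the PARP genes the log2 FC of single genes spanned more than the class medians did. In the replicate numbers that both groups share, deviations of same-numbered libraries went together, and a model with these numbers as a block called 36 of the 43 lower, against a background of 16.4%. DESeq2 and edgeR's likelihood ratio test also called 36 lower each, against backgrounds of 16.1% and 14.5%. The 4 genes gained with the block were Zbp1, Ifit1bl, Cmpk2 and Xaf1, and none was lost. The counts depended on the libraries used. Without LPS replicate 3, 37 were DEGs (background 14.5%), and without both libraries numbered 3, 29 were (background 8.17%). Without LPS replicate 1, LPS replicate 2, LPS/siponimod replicate 1 or LPS/siponimod replicate 3, the numbers were 16, 7, 7 and 9, beside backgrounds of 5.13%, 1.44%, 1.52% and 2.24%. The genes that remained DEGs in all 6 fits with 1 library left out were Oasl, Isg15, Eif2ak2, Ifi35, Ifi44 and Ifi44l, and every other effector gene among the 32 DEGs lost its call in at least 1 of them.

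**Figure D2:**
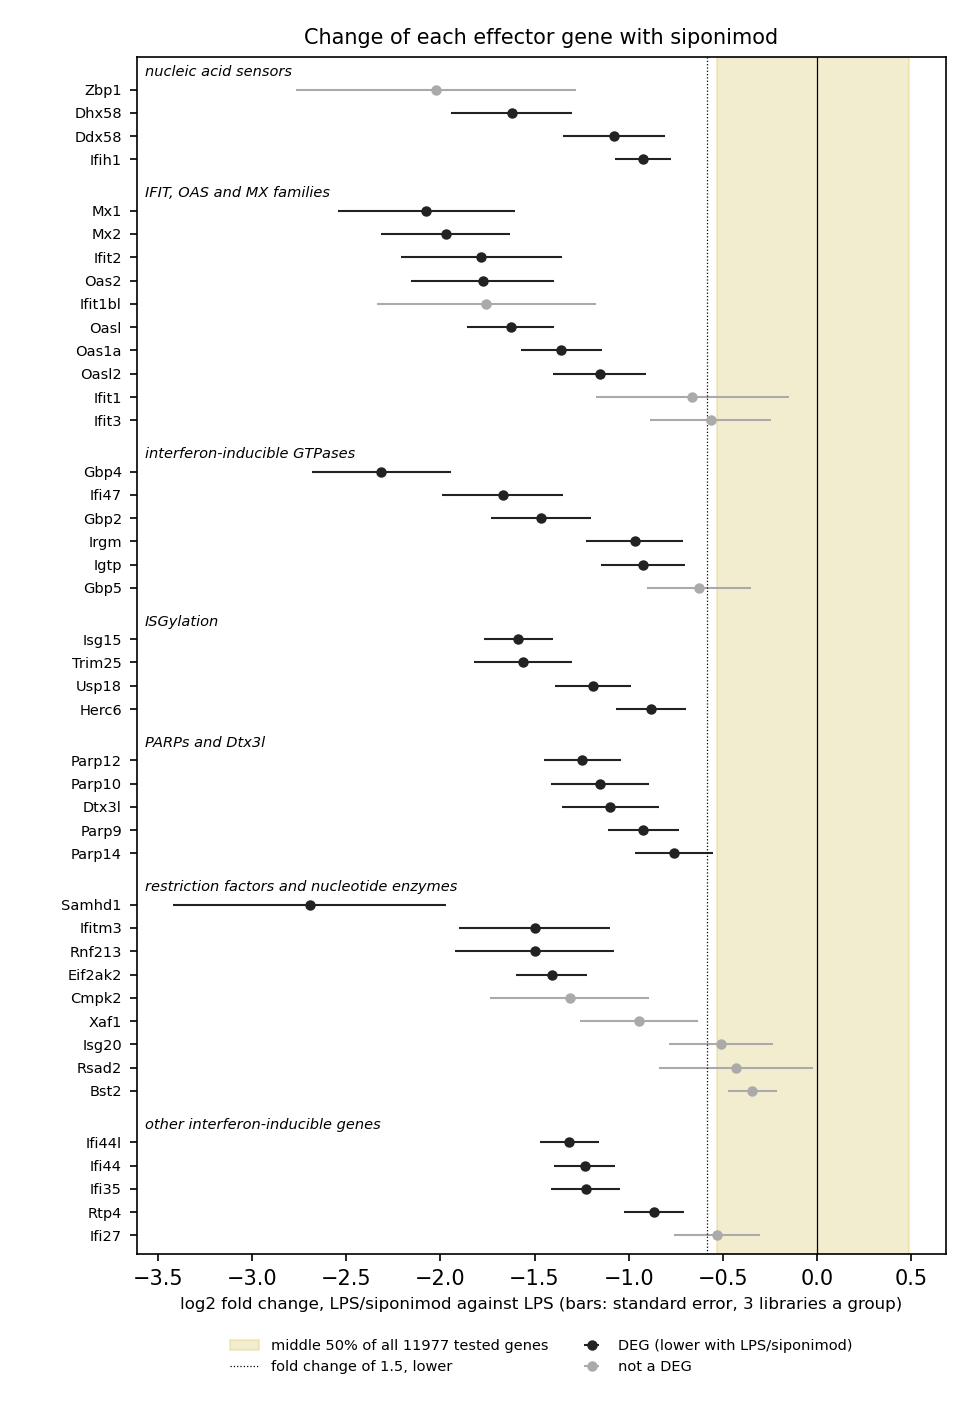
Log2 FC (LPS/siponimod against LPS) of the 43 effector genes with its standard error over 3 libraries per group; black points are DEGs and grey points are not, the dotted line marks a 1.5-fold lower level and the shaded band holds the middle 50% of all 11977 genes tested. All 43 points lie left of 0, and 40 lie left of the band.

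The promoters of these genes are known for the response element named above, and they were searched for its letters as a description, without a test. In RefSeq promoter windows of the rat assembly GRCr8 (300 bases, 250 before the transcription start and 50 after it), 35 of the 46 genes had a window. Among the 35 were Oas1b, Samd9l (by its RefSeq name Samd9l1) and Slfn3. The letters of the response element (GAAA, any 2 bases, GAAA), on either strand, occurred in 23 of the 35 (65.7%), against 3.92% of all 33469 windows. The letters TTCNNNGAA of the gamma-activated site, on either strand, occurred in 11 (31.4%), against 8.87% of all windows. The shares of the 35 count a gene once if any of its windows held the letters, whereas the shares of all windows count windows. Of the 35 genes, 2 had more than 1 window. The following 100-base stretches are from the plus or minus strand as transcribed and written 5′ to 3′, with the letters of the response element in capitals. The first 4 are the genes with the largest decrease among those with a single window that holds the letters, and the last 4 are those with the smallest, none of which was a DEG.
Gbp4 (chr2:233978431-233978530, plus strand): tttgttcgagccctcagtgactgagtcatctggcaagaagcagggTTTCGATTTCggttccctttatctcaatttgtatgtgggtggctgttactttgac
Ifitm3 (chr1:205541748-205541847, minus strand): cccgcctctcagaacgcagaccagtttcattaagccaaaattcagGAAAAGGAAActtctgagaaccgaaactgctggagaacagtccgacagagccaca
Gbp2 (chr2:234005651-234005750, plus strand): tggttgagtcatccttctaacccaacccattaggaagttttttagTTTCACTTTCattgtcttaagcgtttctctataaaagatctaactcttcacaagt
Eif2ak2 (chr6:21941093-21941192, plus strand): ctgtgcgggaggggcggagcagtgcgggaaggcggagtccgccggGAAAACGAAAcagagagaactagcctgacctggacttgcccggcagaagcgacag
Ifi27 (chr6:128355098-128355197, plus strand): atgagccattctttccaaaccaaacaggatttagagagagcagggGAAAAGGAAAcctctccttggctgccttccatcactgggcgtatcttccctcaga
Isg20 (chr1:142239922-142240021, plus strand): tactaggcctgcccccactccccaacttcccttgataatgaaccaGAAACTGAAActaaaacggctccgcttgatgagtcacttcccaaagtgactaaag
Rsad2 (chr6:48788213-48788312, minus strand): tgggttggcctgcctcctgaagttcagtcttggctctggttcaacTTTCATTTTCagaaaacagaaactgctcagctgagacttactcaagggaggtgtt
Bst2 (chr16:18255044-18255143, minus strand): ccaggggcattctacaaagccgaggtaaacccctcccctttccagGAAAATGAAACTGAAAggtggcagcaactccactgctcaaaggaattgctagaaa

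In Gbp4, Gbp2 and Rsad2 the capitals are the reverse complement of the searched letters, and in Bst2 they hold 2 overlapping matches. Ifi27 had a second match outside the stretch shown. The stretches were chosen from windows that hold the letters, so their presence at both ends of the range was fixed beforehand. The windows of Samhd1 (log2 FC -2.69, the largest decrease of the effector genes) and Mx1 (-2.07) did not hold the letters. Of the 23 DEGs with a window 14 held them, and of the 9 genes with a window that were not DEGs 8 held them. The median log2 FC was -1.03 over the 22 tested genes with the letters and -1.53 over the 10 without. A match of letters is a description of the sequence and not a site of binding.

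The nucleic acid sensors included the 3 RIG-I-like RNA helicases, and each of them was a DEG. Ifih1, which encodes the long double-stranded RNA sensor MDA5, had 243, 230 and 256 CPM in the LPS libraries and 111, 150 and 123 CPM in the LPS/siponimod libraries. The groups did not overlap, and the fold change was 1.90 (log2 FC -0.92 ± 0.15 standard error, adjusted p = 0.0111). Dhx58, which encodes the regulatory helicase LGP2, fell from 333, 275 and 183 CPM to 74.9, 118 and 63.4 CPM (log2 FC -1.62 ± 0.32, adjusted p = 0.0175). Ddx58, the gene of RIG-I itself, which reads the 5′ ends of viral RNA, fell from 495 ± 146 to 234 ± 42.9 CPM (mean ± SD of 3 libraries each; log2 FC -1.08, adjusted p = 0.0323). Zbp1 encodes a sensor of Z-form nucleic acids that can trigger necroptosis. It had 117 and 120 CPM in LPS replicates 1 and 2 but 31.5 CPM in LPS replicate 3, and 15.2, 42.2 and 8.49 CPM with LPS/siponimod. The groups overlapped through LPS replicate 3 alone, and the log2 FC of -2.03 had a standard error of 0.74 and an adjusted p of 0.086. With the replicate block Zbp1 was a DEG (log2 FC -2.11, edgeR adjusted p = 0.00968), and its difference within the pairs was -2.94, -1.51 and -1.89 on the log2 scale. Its log2 FC was -2.92 without LPS/siponimod replicate 2. The 3 helicase genes lost their call without LPS/siponimod replicate 1, with edgeR adjusted p of 0.0549 for Ifih1, 0.087 for Dhx58 and 0.129 for Ddx58. None of the 3 was a DEG without LPS replicate 2 or without LPS/siponimod replicate 3 either.

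IFIT proteins bind foreign RNA ends, oligoadenylate synthetases (OAS) make the second messenger that activates RNase L, and the MX proteins are dynamin-like GTPases that trap viral nucleocapsids. Mx1 had the largest decrease of this class. Its level was 6625, 5166 and 2376 CPM with LPS and 1007, 1600 and 758 CPM with LPS/siponimod. The groups did not overlap, although LPS replicate 3 had less than the other LPS libraries, and the log2 FC was -2.07 (standard error 0.47, adjusted p = 0.0248; 0.11 without LPS/siponimod replicate 1). Mx2 fell from 1333 ± 361 to 340 ± 123 CPM (mean ± SD of 3 libraries each; log2 FC -1.97, adjusted p = 0.0128).

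All 4 listed OAS genes were DEGs. Oasl, whose product is an OAS-like protein with ubiquitin-like domains, had 1850, 1437 and 1729 CPM with LPS and 485, 687 and 452 CPM with LPS/siponimod (log2 FC -1.63 ± 0.23, adjusted p = 0.00834). It was the gene of this class that stayed a DEG with each library left out. Oas1a, a synthetase gene, fell from 416, 365 and 293 CPM to 126, 174 and 119 CPM (log2 FC -1.36 ± 0.22, adjusted p = 0.0106; 0.0587 without LPS/siponimod replicate 1). The log2 FC was -1.78 for Oas2, the larger synthetase (141 ± 55.1 against 41.1 ± 14.4 CPM, adjusted p = 0.0212), and -1.15 for Oasl2 (357 ± 85.7 against 160 ± 35.4 CPM, adjusted p = 0.0209).

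The IFIT genes were less uniform. Ifit2, which encodes an inhibitor of translation, was a DEG, with 1592, 928 and 644 CPM in the LPS libraries, as against 300, 422 and 198 CPM after addition of siponimod (log2 FC -1.78 ± 0.43, adjusted p = 0.028; 0.116 without LPS/siponimod replicate 1). Ifit3, whose product assembles with other IFIT proteins, had 1351, 699 and 688 CPM with LPS and 757, 550 and 543 CPM with LPS/siponimod. Here LPS/siponimod replicate 1 lay above LPS replicates 2 and 3, and the log2 FC of -0.57 (standard error 0.32, adjusted p = 0.222) was the smallest of the class. Ifit1bl, an Ifit1-like gene, had 99.6 CPM in LPS replicate 1 and 27.7 and 25.4 CPM in LPS replicates 2 and 3, against 18.9, 15.4 and 10.9 CPM with LPS/siponimod (log2 FC -1.76, adjusted p = 0.0663; 0.0252 with the replicate block, a DEG). Without LPS replicate 1 the log2 FC of Ifit1bl was -0.80. Ifit1, the gene of a sensor of unmethylated RNA caps, was barely counted, with 48, 27 and 14 counts against 22, 26 and 18, and its log2 FC of -0.66 had a standard error of 0.51 (adjusted p = 0.358). The IFIT, OAS, GBP and IFI44 genes have paralogs, and how reads matching several genes were divided is not stated, so that their single values are uncertain.

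The interferon-inducible GTPases act on the vacuoles of intracellular pathogens and comprise immunity-related GTPases (Irgm, Igtp, Ifi47) and guanylate-binding proteins (Gbp2, Gbp4, Gbp5). The largest decrease was that of Gbp4, from 121, 93.3 and 62.3 CPM to 12.6, 26.9 and 16.3 CPM (log2 FC -2.31 ± 0.37, adjusted p = 0.0107). The lowest LPS library thus lay above the highest LPS/siponimod library. Gbp2 fell from 604, 536 and 477 CPM to 163, 272 and 150 CPM (log2 FC -1.46 ± 0.27, adjusted p = 0.0142). Gbp5, whose product promotes inflammasome assembly, had 170, 102 and 124 CPM against 85.7, 110 and 61.3 CPM. Its groups overlapped, since LPS/siponimod replicate 2 exceeded LPS replicate 2, and it was not a DEG (log2 FC -0.63 ± 0.28, adjusted p = 0.134). The 3 immunity-related GTPases were DEGs, with log2 FC of -1.67 for Ifi47, -0.97 for Irgm and -0.93 for Igtp (adjusted p = 0.0165, 0.0369 and 0.0284). Without both libraries numbered 3, 3 genes of the class were DEGs, and without LPS replicate 2 none was, with adjusted p of 0.0515 for Gbp4 and 0.068 for Ifi47 in edgeR.

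ISG15 is a ubiquitin-like protein that is attached to other proteins in infected cells. Isg15 had 535, 516 and 441 CPM in the LPS libraries and 142, 200 and 155 CPM in the LPS/siponimod libraries, and its fold change of 3.00 was the largest of the ISGylation genes (log2 FC -1.59 ± 0.18, adjusted p = 0.00655). Trim25, the gene of a ubiquitin ligase that acts on RIG-I, fell from 363, 305 and 235 CPM to 85.2, 135 and 85.7 CPM (log2 FC -1.56 ± 0.26, adjusted p = 0.0115). Usp18 encodes the protease that removes ISG15 and also restrains the type I interferon receptor. It had 723, 757 and 904 CPM with LPS, the highest value being that of LPS replicate 3, and 321, 428 and 295 CPM with LPS/siponimod (log2 FC -1.19, adjusted p = 0.0121). Herc6, the gene of the main ISG15 ligase of mice, had the smallest change of the class, from 441, 294 and 399 CPM to 209, 218 and 189 CPM (log2 FC -0.88 ± 0.19, adjusted p = 0.0204). No library of one group reached into the other for any of the 4 genes. Without LPS/siponimod replicate 1, Trim25 (edgeR adjusted p = 0.0614), Usp18 (0.0657) and Herc6 (0.0881) were no longer DEGs.

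The enzymes that start the conjugation were measured outside the 46 genes. Uba7, which encodes the ISG15-activating enzyme, had 145, 162 and 80.7 CPM with LPS and 22.1, 49.2 and 20.8 CPM with LPS/siponimod (log2 FC -2.07 ± 0.43, adjusted p = 0.02; 0.0907 without LPS/siponimod replicate 1). Ube2l6, the gene of the conjugating enzyme, fell from 38, 39.5 and 35.7 CPM to 21.9, 26.2 and 19.4 CPM (log2 FC -0.75 ± 0.14, adjusted p = 0.0165). Both groups of values stood apart for these genes, as they did in the opposite direction for Arih1, a ubiquitin ligase gene, with 92.3 ± 2.84 against 130 ± 11.5 CPM (mean ± SD of 3 libraries each; log2 FC 0.50, adjusted p = 0.027, below the required fold change). Herc3, the fourth gene of this list, was not a DEG (log2 FC -0.88, adjusted p = 0.114).

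The PARP genes encode ADP-ribosyltransferases, and Dtx3l encodes the ubiquitin ligase that partners with PARP9. All 5 were DEGs without overlap between groups. Parp12 had the largest decrease, from 334, 292 and 255 CPM to 103, 155 and 114 CPM (log2 FC -1.25 ± 0.20, adjusted p = 0.011). Parp9 fell from 357, 307 and 245 CPM to 144, 185 and 151 CPM (log2 FC -0.92 ± 0.19, adjusted p = 0.0192). Parp14 had the smallest decrease, from 1285, 1161 and 971 CPM to 592, 822 and 603 CPM (log2 FC -0.76 ± 0.21, adjusted p = 0.0397). Parp10 and Dtx3l lay between them, with log2 FC of -1.16 and -1.10. Without LPS replicate 2, LPS/siponimod replicate 1 or LPS/siponimod replicate 3 none of the 5 was a DEG. Their highest edgeR adjusted p among these fits were 0.0551 for Parp12 and 0.159 for Parp14.

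With all 6 libraries, restriction factors and nucleotide enzymes were the class with the lowest share of DEGs, 4 of 9. This rank did not hold without LPS replicate 2, LPS/siponimod replicate 1 or LPS/siponimod replicate 3. In each of these fits 1 gene of the class was a DEG, and none of the sensors or of the PARP class was. Eif2ak2, the gene of the RNA-dependent kinase PKR that halts translation, fell from 367, 358 and 311 CPM to 112, 162 and 115 CPM (log2 FC -1.41 ± 0.19, adjusted p = 0.00779). Samhd1, whose product depletes the deoxynucleotides that reverse transcription needs, had the largest fold change of all 43 genes (6.47, log2 FC -2.69 ± 0.72, adjusted p = 0.0376). Its levels were 185, 132 and 35.3 CPM with LPS and 12.9, 31.8 and 9.83 CPM with LPS/siponimod. The lowest LPS library, replicate 3, came close to the highest LPS/siponimod library, replicate 2, and without the latter the log2 FC of Samhd1 was -3.38. Ifitm3, which encodes a membrane protein that blocks viral fusion, had 27.2, 16.6 and 11.9 CPM against 6.39, 9.03 and 4.27 CPM (log2 FC -1.50 ± 0.40, adjusted p = 0.0369). Rnf213, the gene of a very large ubiquitin ligase, fell from 1653 ± 434 to 585 ± 310 CPM (mean ± SD of 3 libraries each; log2 FC -1.50, adjusted p = 0.0427). Of these 4, Samhd1 and Ifitm3 were no longer DEGs without LPS/siponimod replicate 1 (edgeR adjusted p = 0.148 and 0.136), nor was Rnf213 without LPS replicate 2 (0.142). Without LPS replicate 3, 7 genes of the class were DEGs.

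The 5 genes of this class that were not DEGs had diverse values. Bst2, which encodes tetherin, a protein that holds budding virions at the cell surface, had 315, 282 and 260 CPM against 216, 231 and 229 CPM. Its groups did not overlap, but the fold change was 1.27 (log2 FC -0.34 ± 0.13, adjusted p = 0.0937). Rsad2, the gene of viperin, which makes a chain-terminating nucleotide, had 1443, 712 and 492 CPM against 749, 523 and 692 CPM. Its groups overlapped widely, and the log2 FC of -0.43 had a standard error of 0.41 (adjusted p = 0.455). Cmpk2, the gene of a mitochondrial nucleotide kinase, had 1083, 611 and 326 CPM against 286, 280 and 246 CPM without overlap (log2 FC -1.31, adjusted p = 0.0604; 0.0438 with the replicate block, a DEG). Xaf1, whose product antagonises an apoptosis inhibitor, had 209, 174 and 97.9 CPM against 73.8, 105 and 70.5 CPM (log2 FC -0.95, adjusted p = 0.0653; 0.0355 with the replicate block, a DEG). Isg20, which encodes an exonuclease, had 28.6, 24.2 and 13.6 CPM against 14.9, 16.5 and 15.2 CPM (log2 FC -0.51, adjusted p = 0.204). For Xaf1 and Isg20 the overlap came from LPS replicate 3 alone.

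Of the 5 other interferon-inducible genes, Ifi44l and Ifi44 had the smallest p-values. Ifi44l had 218, 194 and 193 CPM with LPS and 68.4, 94.3 and 80.2 CPM with LPS/siponimod (log2 FC -1.32 ± 0.16, adjusted p = 0.00655). Ifi44 fell from 259, 243 and 224 CPM to 85, 106 and 117 CPM (log2 FC -1.23 ± 0.16, adjusted p = 0.00733). The 2 genes are neighbouring paralogs. Ifi35 (74.8 ± 6.06 against 31.9 ± 7.29 CPM, log2 FC -1.23, adjusted p = 0.00937) and the chaperone gene Rtp4 (153 ± 18.8 against 83.9 ± 10.9 CPM, log2 FC -0.87, adjusted p = 0.0141) were DEGs too. Rtp4 was not one without LPS replicate 2, LPS/siponimod replicate 1 or LPS/siponimod replicate 3, with a highest edgeR adjusted p of 0.0674. Ifi27 had 262, 179 and 264 CPM with LPS and 155, 132 and 200 CPM with LPS/siponimod. LPS/siponimod replicate 3 exceeded LPS replicate 2, and Ifi27 was not a DEG (log2 FC -0.53 ± 0.23, adjusted p = 0.125).

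The same-numbered libraries allowed the difference to be read 3 times. The median over the 43 genes was -1.63, -0.98 and -1.17 on the log2 scale in pairs 1, 2 and 3. The difference was negative in all 3 pairs for 39 genes, which held for 35.4% of all genes. The 4 exceptions were Gbp5 in pair 2 (0.10) and Ifit1 (0.20), Rsad2 (0.49) and Isg20 (0.17) in pair 3. Libraries of a group also differed in the level of the whole set. LPS replicate 1 was the highest LPS library for 35 of the 43 genes and LPS replicate 3 the lowest for 37, while these shares were 34.8% and 41.5% over all genes. Relative to the mean of LPS replicates 1 and 2, LPS replicate 3 had a median log2 difference of -0.57 over the 43 genes, from -2.17 for Samhd1 to 0.29 for Usp18, compared with -0.01 over all genes. In the LPS/siponimod group, replicate 2 was the highest library for 37 of the 43 genes and for 38.1% of all genes. The pair with the smallest difference was thus the one whose LPS/siponimod library was highest.

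**Figure D3:**
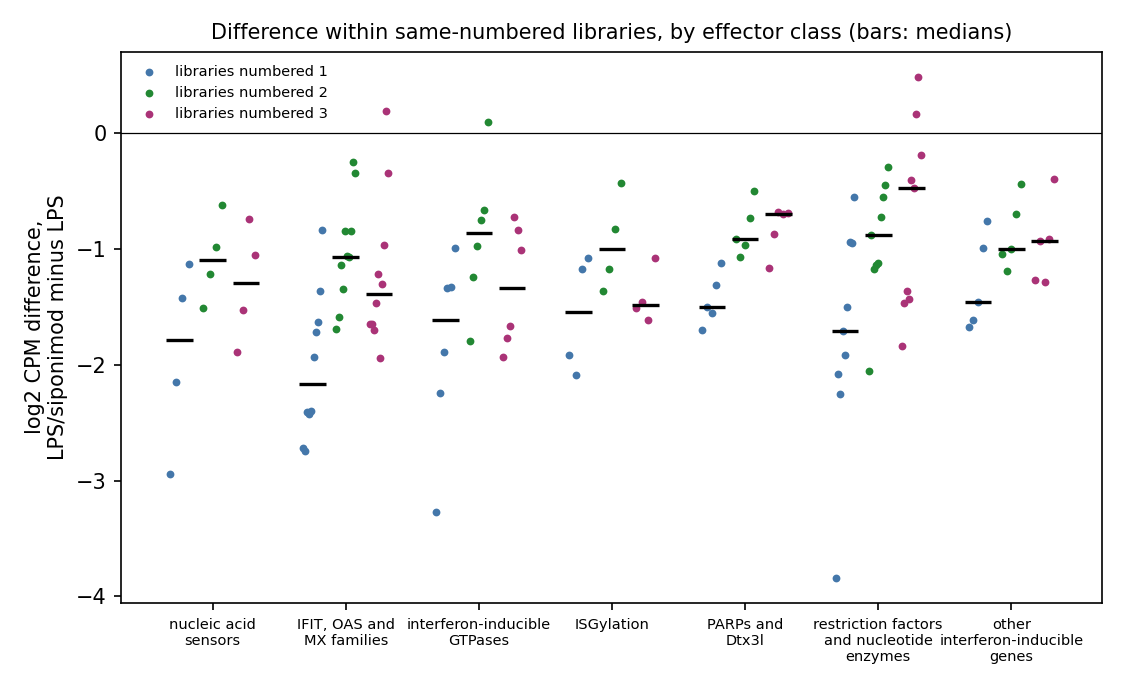
Difference in log2 CPM between same-numbered libraries (LPS/siponimod minus LPS) for each effector gene, by class; each point is 1 gene in 1 pair, colours give the replicate number and bars the median of a class in a pair. All medians lie below 0, and 4 points of 4 genes lie above it.

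Several of the genes are neighbours on a chromosome, in the gene order of the RefSeq annotation of GRCr8, and their ratio within a library does not depend on normalisation. Most of these pairs are paralogs (IFIT, OAS, GBP and IFI44 genes), and reads shared between paralogs would enter these ratios directly; their part was not tested. For 9 neighbouring pairs the log2 ratio was compared between groups by a two-sided exact permutation test, which cannot go below p = 0.1 with 3 libraries against 3. In 5 pairs the groups stood apart (exact permutation p = 0.1, 0.18 adjusted over 9 pairs). Of the 11977 single genes tested, the groups stood apart for 2878 with lower and 3031 with higher levels in LPS/siponimod. The share over ratios of other genes was not computed, so the 5 pairs are not shown to be unusual. Rsad2 and Cmpk2, which lie side by side, had a ratio of 1.33, 1.17 and 1.51 in the LPS group and of 2.62, 1.86 and 2.81 with LPS/siponimod. The ratio of Ifit2 to Ifit3 was 1.18, 1.33 and 0.935 in the LPS group, compared with 0.397, 0.767 and 0.364 after siponimod, a shift of -1.24 on the log2 scale. The ratio of Gbp4 to Gbp2 shifted by -0.82, that of Oasl to Oasl2 by -0.50 and that of Ifit3 to Ifit1bl by 0.98. In the other 4 pairs the groups overlapped. The largest shift among them was that of Ifit1bl to Ifit1 (-0.99, exact permutation p = 0.2), whose ratio was 76.9, 39.6 and 67.5 in the LPS libraries, as against 39.9, 26.5 and 24.9 after siponimod, lower in each same-numbered pair, a pairing that this test does not use. The ratio of Dtx3l to Parp14 shifted by -0.30 (p = 0.3 in the same permutation test). Ifi44 and Ifi44l had ratios of 1.19, 1.25 and 1.16 with LPS and of 1.24, 1.13 and 1.46 with LPS/siponimod (exact permutation p = 0.7), and Parp9 and Dtx3l had a shift of 0.15 (p = 0.4 in the same permutation test).

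**Figure D4:**
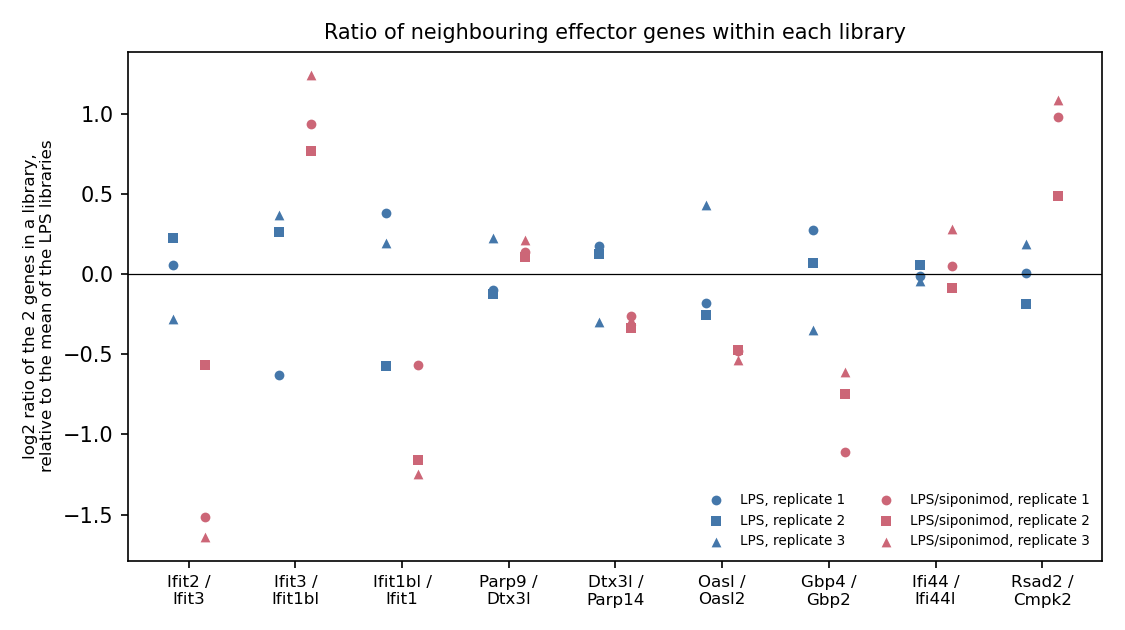
Log2 ratio of neighbouring effector genes in each library, relative to the mean of the LPS libraries for that pair; blue marks LPS, red marks LPS/siponimod and the shape gives the replicate number. Red and blue markers stand apart in 5 of the 9 pairs, among them Ifit2/Ifit3 (below 0) and Rsad2/Cmpk2 (above 0). The share over ratios of other genes was not computed.

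The genes upstream of the effectors were read from a list of 67 interferon pathway genes, of which 59 were listed and 50 tested. Of the 50, 16 were DEGs with lower and 3 with higher expression (median log2 FC -0.59), beside the backgrounds of 11.7% and 13.6%. Among the ligands, Ifnb1 had 16, 7 and 40 counts with LPS and 0, 1 and 1 counts with LPS/siponimod. These counts were too low for the filter, and the ratio of normalised counts was 36.9 with a 95% exact interval of 9.80 to 312, which covers counting error only. With no filter on low counts Ifnb1 was a DEG in the quasi-likelihood test (adjusted p = 0.0329). The highest LPS value was that of replicate 3, the library with the lowest level of most effector genes. It held 40 of the 63 LPS counts, so that the size of the ratio depends on this library. LPS replicates 1 and 2 had 0.432 and 0.182 CPM, against at most 0.0244 CPM in an LPS/siponimod library. Ifna1, Ifnk, Ifng, Ifnl1 and Ifnl3 had no count in any library, and no other listed ligand was tested.

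Of 14 genes of the receptors and their signalling, 3 were DEGs with lower and 2 with higher expression. The chains of the type I interferon receptor were not DEGs. Ifnar1 had 389, 290 and 200 CPM with LPS and 344, 328 and 250 CPM with LPS/siponimod (log2 FC 0.07, adjusted p = 0.862), and its groups overlapped. Ifnar2 had 118, 95.1 and 110 CPM against 141, 120 and 126 CPM (log2 FC 0.26 ± 0.14, adjusted p = 0.184). Of the factors that carry the signal to the response element, Irf9 had 75, 47.8 and 42.7 CPM against 54.2, 48.6 and 44.9 CPM (log2 FC -0.16, adjusted p = 0.617). Stat2 had 439, 413 and 272 CPM against 238, 279 and 210 CPM (log2 FC -0.63, adjusted p = 0.0809; 0.0368 with the replicate block, a DEG). The feedback inhibitor gene Socs1 had 5.05, 3.79 and 7.35 CPM against 2.50, 2.38 and 4.02 CPM (log2 FC -0.86, adjusted p = 0.108; 0.0255 with the replicate block, a DEG).

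The DEGs of this list with lower expression were Stat3, which mediates signals of the interleukin-6 family (211, 238 and 238 CPM against 121, 133 and 113 CPM, log2 FC -0.91, adjusted p = 0.00834), Jak2 (log2 FC -0.62) and the phosphatase gene Ptpn6 (log2 FC -1.44). Those with higher expression were Ptpn2, the gene of a phosphatase that inactivates Janus kinases (29.4, 27.3 and 35.9 CPM against 47.5, 42.2 and 49.2 CPM, log2 FC 0.59, adjusted p = 0.0291), and the interferon-γ receptor gene Ifngr1 (log2 FC 1.02, adjusted p = 0.0498). None of the 5 except Stat3 passed in each fit with 1 library left out, and Stat3 had a highest edgeR adjusted p of 0.0483 among them.

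Among 7 tested interferon regulatory factors, Irf7, the factor that amplifies type I interferon production, fell from 3820, 2832 and 2545 CPM to 1430, 1770 and 1065 CPM (log2 FC -1.11 ± 0.27, adjusted p = 0.0304; 0.119 without LPS/siponimod replicate 1). Irf5 was the other DEG with lower expression (log2 FC -1.01, adjusted p = 0.0313). Irf4 rose from 0.459, 0.623 and 0.646 CPM to 3.12, 2.51 and 8.00 CPM (log2 FC 2.97, adjusted p = 0.0136). Its log2 FC was 2.29 without LPS/siponimod replicate 3, and Irf4 was not a DEG without LPS replicate 1 or LPS replicate 2 (highest edgeR adjusted p = 0.0639). Irf1 had 55.1, 47.2 and 23.3 CPM against 43.4, 55.9 and 46.7 CPM, and its groups overlapped (log2 FC 0.22, adjusted p = 0.631). Irf8 had 182, 133 and 38.1 CPM with LPS and 35.8, 46.0 and 19.0 CPM with LPS/siponimod, with overlap. Its log2 FC of -1.81 was the largest decrease of the list (adjusted p = 0.0679; 0.0133 with the replicate block, a DEG). The median over the 7 was 0.03, and it sums up genes that went both ways, 3 with a negative and 4 with a positive log2 FC.

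Of 16 sensing adaptors and kinases, 5 were DEGs with lower and none with higher expression. Trim21, the gene of a cytosolic antibody receptor, had 122, 119 and 126 CPM against 56.7, 70.4 and 63.8 CPM (log2 FC -0.94 ± 0.12, adjusted p = 0.00733). The DNA sensor gene Cgas (log2 FC -1.62), the RNA receptor gene Tlr7 (-1.54) and the kinase genes Ikbke (-1.44) and Tbk1 (-0.64) were the others. Tlr4, the receptor gene of LPS, had 38, 42 and 17.6 CPM against 54.5, 47.8 and 63.9 CPM without overlap and was not a DEG (log2 FC 0.77 ± 0.33, adjusted p = 0.125). Of 9 genes of the immunoproteasome and of peptide loading, which interferons also induce, 4 were DEGs with lower expression, namely Psme1, Psme2, Psmb8 and Psmb9. Psme1 had 228, 190 and 182 CPM against 113, 127 and 98.3 CPM (log2 FC -0.83, adjusted p = 0.0157; 0.0779 without LPS/siponimod replicate 1), and the gene closest to an increase was Tap2 (log2 FC 0.09, adjusted p = 0.732). Of the pathway DEGs, Stat3, Cgas and Trim21 kept their call in each fit with 1 library left out, and every other one lost it in at least 1.

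**Figure D5:**
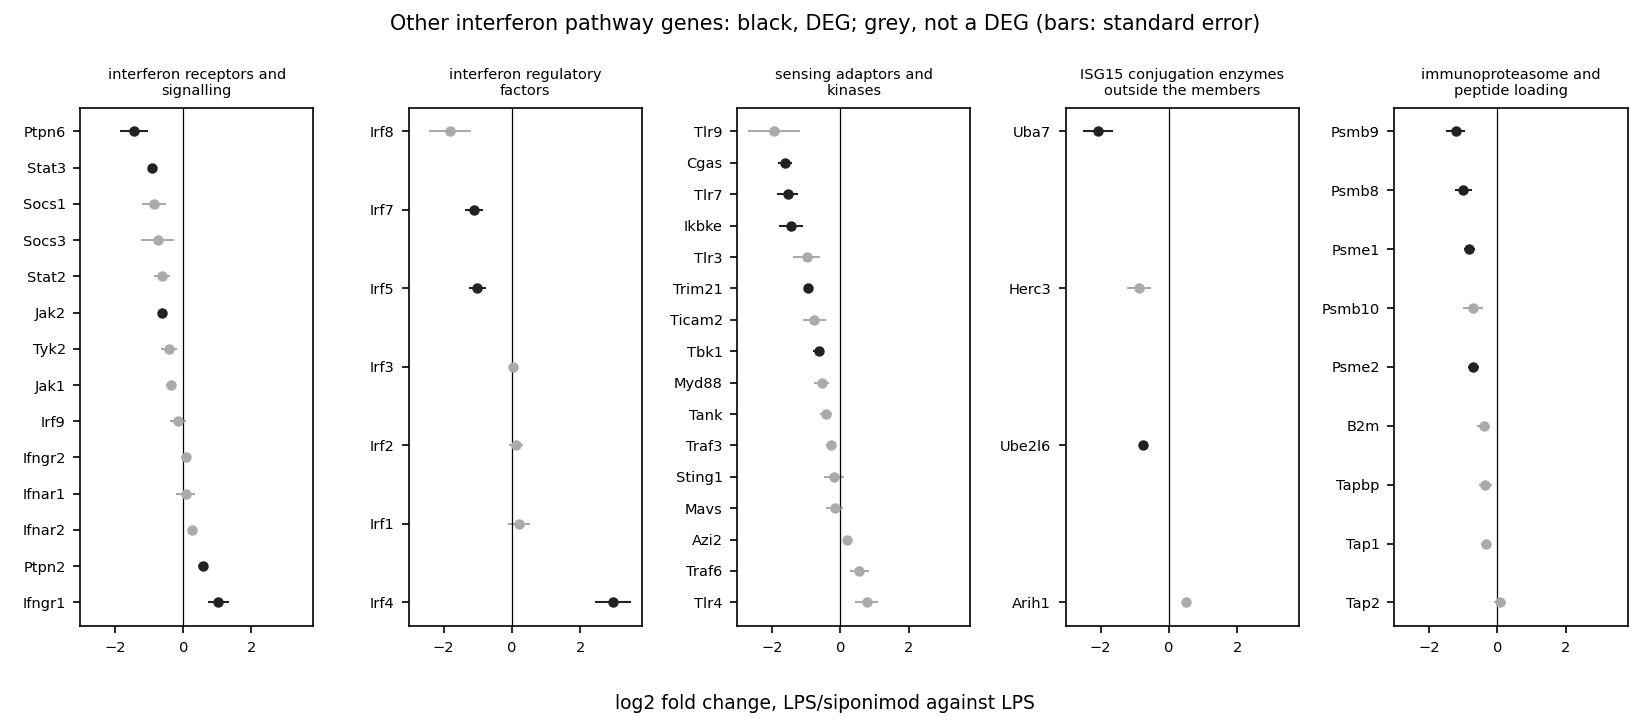
Log2 FC (LPS/siponimod against LPS) with its standard error, over 3 libraries per group, for the 50 tested interferon pathway genes outside the effectors, in 5 lists; black points are DEGs and grey points are not. DEGs with lower expression occur in each list (3, 2, 5, 2 and 4), and those with higher expression are Ptpn2, Ifngr1 and Irf4.

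Some marker genes of cell types also moved with the comparison, and whether the identity of the cells changed was not tested. Of 13 tested microglia markers 4 were DEGs with lower expression (Aif1 with log2 FC -1.88, Itgam with -0.87, Cx3cr1 with -3.65 and Gpr34 with -3.74) and none with higher expression, and 10 had a negative log2 FC. With 1 library left out the log2 FC ranged from -5.01 (without LPS/siponimod replicate 2) to -2.71 (without LPS replicate 2) for Cx3cr1 and from -5.06 (without LPS/siponimod replicate 2) to -3.28 for Gpr34, and each was a DEG in 2 of the 6 fits. The summed level of the microglia markers was 8252, 7122 and 5076 CPM with LPS and 4325, 5200 and 3434 CPM with LPS/siponimod, Csf1r having the most counts and Siglech none. The pan-leukocyte gene Ptprc (log2 FC -0.02) and the lysosomal gene Cd68 (0.00) had similar means in both groups. Markers of other cells summed to less than those of microglia in every library. Astrocyte markers (most counts in Slc1a3) summed to between 24.4 and 61.1 CPM, those of the oligodendrocyte lineage (Mbp) to between 5.37 and 36.0 CPM, neuron markers (Tubb3) to between 2.31 and 17.5 CPM and fibroblast and meningeal markers (Dcn) to between 4.10 and 11.7 CPM. Endothelial and pericyte markers (Cdh5, with Kdr and Rgs5 at 0) summed to 166, 214 and 93.1 CPM with LPS and to 38.4, 82.3 and 26.7 CPM with LPS/siponimod, and of 4 tested genes Flt1 was a DEG with lower expression. With the replicate block Pecam1 (edgeR adjusted p = 0.00966) and Cdh5 (0.0142) were DEGs with lower expression too. The block also called the neuron marker Tubb3 higher (edgeR adjusted p = 0.0316). Markers of T, B and natural killer cells (Klrb1a, with Cd3e and Nkg7 at 0) and of neutrophils and mast cells (S100a8, with Mpo, Elane, Ltf and Cpa3 at 0) stayed at or below 2.88 CPM. In these lists of other cells, 4 markers were DEGs with higher expression, namely Snap25 (0, 1 and 1 counts with LPS, 94, 153 and 81 with LPS/siponimod), Dcn (3, 0 and 4 against 456, 49 and 178), Klrb1a (6, 4 and 1 against 102, 100 and 67) and Mbp (149, 161 and 84 against 470, 397 and 652). Besides Flt1, Aldoc (218, 125 and 123 against 85, 88 and 78 counts) and S100a8 (70, 65 and 105 against 1, 12 and 10) were DEGs with lower expression. The log2 FC of Dcn (6.28) was 5.36 without LPS/siponimod replicate 1 and 6.89 without LPS replicate 3. Of all marker DEGs, Snap25 and Flt1 kept their call in each fit with 1 library left out. The part of these markers in the lower level of the effector genes was not tested.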

How the data were processed

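The authors sequenced polyA-selected mRNA as single-end reads, converted and demultiplexed them with bcl2fastq (version 2.20.0.422), trimmed adapters and low-quality bases, and mapped them to the rat genome mRatBN7.2 in the CLC Genomics Workbench. The deposited values are total read counts per gene and library, without normalisation; how reads matching several genes and the strand were treated is not stated in the sources used here. In 1 library, 1 empty row, with neither a gene name nor a value, was left out.

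Counts were analysed in R 4.3.3 with edgeR 4.0.16. Genes were kept by filterByExpr (minimum count 10, minimum total 15), which left 11977 of 23139 genes. CPM are counts per 1000000 counts of the tested genes, scaled by TMM (factors from 0.939 to 1.056). The 2 groups were compared by glmQLFit and glmQLFTest with the group as the only term, and p-values were adjusted over all genes tested by the Benjamini-Hochberg method. Standard errors were obtained as the absolute log2 FC over the root of its F statistic. Pair differences used log2 CPM at a prior count of 2. Intervals of counts cover counting error alone, because the reads carry no molecular identifiers.

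The 46 genes, their classes, the lists of pathway genes and of markers and the tests were chosen with earlier results of these data known. Described in full were, in each class, the 2 genes with the smallest p, the gene with the largest and that with the smallest absolute log2 FC, and outside the classes Ifnb1, Ifnar1, Ifnar2, Stat2, Irf9, Irf7, Irf1, Uba7, Ube2l6, Socs1 and in each list the gene with the smallest p in each direction. The remaining genes were named after their values were seen.

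After centring on group means, same-numbered libraries correlated over genes by 0.420, 0.545 and 0.611, and others by between -0.534 and 0.0856. On these values, and on no statement in the sources, the numbers were taken to pair the libraries. Alternatives were RLE normalisation, DESeq2 1.42.0, limma-voom (limma 3.58.1), edgeR's likelihood ratio test, no filter on low counts, a mean of at least 1 CPM, the replicate block and leaving out each library. Leaving out both libraries numbered 3 was added after the data were seen. Where nothing shows that replicates came from separate animals, p-values measure the spread between these libraries.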

Additional observations from a re-analysis of the deposited data

How the results depend on the processing

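The number of effector genes with lower expression (32) was 32 with RLE normalisation, limma-voom and a mean of at least 1 CPM, 36 with DESeq2 and with the likelihood ratio test, and 29 with no filter on low counts. Of all genes tested, 1421 of 11977 were lower with RLE, 1442 with limma-voom, 1924 with DESeq2 and 1738 with the likelihood ratio test. With a mean of at least 1 CPM 1360 of 10885 were lower, and with no filter 1113 of 17057. The 35 genes whose groups did not overlap were as many under RLE and under plain library totals. No alternative called an effector gene higher, and the median log2 FC stayed between -1.38 and -1.11 with 1 library left out. With the replicate block, which uses the pairing of the numbers, 36 effector genes were lower, against a background of 16.4%. Of the genes of the receptors and signalling 5 were lower (3 without the block), Stat2 and Socs1 being gained. The block also called Irf8 and Ticam2 lower and changed no other call among the effector and pathway genes tested.

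With 1 library left out, the number of effector genes with lower expression ranged from 7 to 37, and by class from 0 to 4 for sensors, 1 to 8 for the IFIT, OAS and MX genes, 0 to 5 for GTPases, 1 to 4 for ISGylation, 0 to 5 for PARP genes and 1 to 7 for restriction factors. Lower pathway genes ranged from 1 to 3 for receptors and signalling, 0 to 2 for regulatory factors, 2 to 7 for sensing, 0 to 3 for ISG15 enzymes and 0 to 4 for the immunoproteasome, and higher ones from 0 to 1 for receptors and signalling, 0 to 1 for regulatory factors and 0 to 1 for sensing. Over all genes tested, the share with lower expression ranged from 1.44% (without LPS replicate 2) to 14.5% (without LPS replicate 3). The fits with 1 library left out hold fewer libraries, and beyond that the cause was not tested. Without both libraries numbered 3, 3 GTPases, 1 gene of receptors and signalling and 1 regulatory factor were lower, and 1 gene of receptors and signalling and 1 of sensing were higher. With no filter on low counts, which tests more genes, 1 ligand was lower and 0 genes of receptors and signalling were higher.

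Leaving out 1 library changed the sign of the log2 FC of Rsad2 among the effector genes and of Ifnar1, Ifngr2, Irf1, Irf2, Irf3, Irf9, Socs3, Mavs and Tap2 among the pathway genes tested, none of them a DEG, and of some markers, Cd68 and Ptprc among them. It ranged from -0.72 to 0.13 for Rsad2 and from -0.32 to 0.14 for Irf9 (both positive without LPS replicate 1), from -0.14 to 0.34 for Ifnar1 (negative without LPS replicate 3 and, at -0.024, without LPS/siponimod replicate 1) and from -0.070 to 0.47 for Irf1 (negative without LPS replicate 3). Without both libraries numbered 3 it was -0.0091 for Ifnar1 and -0.040 for Irf1. Ifit1 and Ifnb1 had at most 48 and 40 counts in a library, and whether depth or the spread between libraries set their errors was not tested.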
